A study of Setaria viridis with 9 samples.

Results

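Transcripts of the mitochondrial respiratory chain were examined in leaves of Setaria viridis, a small C4 grass. The set was chosen by words in the deposited gene descriptions, which name subunits and assembly factors of complexes I to IV, the mitochondrial ATP synthase, alternative NAD(P)H dehydrogenases, alternative oxidases (listed as ubiquinol oxidases) and mitochondrial uncoupling proteins, with plastid-only entries left out. This gave 71 of the 17987 genes in the table, and all 71 were among the 17970 that passed the filter on low counts. By role, 23 belonged to complex I, 11 to complex II, 6 to complex III, 7 to complex IV and 6 to its assembly, and 7 to the ATP synthase. A further 3 were alternative oxidases, 4 were alternative NAD(P)H dehydrogenases and 4 were uncoupling proteins. Subunits encoded in the mitochondrial genome were not analysed here.

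Polyadenylated RNA came from leaf discs of the youngest fully expanded leaves of plants 3 to 4 weeks after sowing, grown with 16 h of light at 380 µmol m-2 s-1 and 28 °C and 8 h of dark at 22 °C. All plants were of the cultivar ME034V-1. Each of 3 genotypes has 3 libraries that the labels call biological replicates. They are unedited wild type (WT), plants edited to carry null alleles of NdhO (ndhO), which encodes part of the NADH dehydrogenase-like complex of chloroplasts, and plants edited to carry null alleles of PGR5 (pgr5), which encodes a thylakoid protein. Both edited genes act in cyclic electron flow around photosystem I, and the comparisons asked whether respiratory transcripts differed when either was edited. The labels do not say how many independent edited lines were used or whether the replicates were separate plants, so p-values measure the spread between these libraries.

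In mitochondria, electrons from NADH enter at complex I and those from succinate at complex II, pass through ubiquinone to complex III and cytochrome c, and reach oxygen at complex IV, while the proton gradient built on the way drives the ATP synthase. Plants also carry bypasses: alternative NAD(P)H dehydrogenases feed electrons into ubiquinone, alternative oxidases pass them from ubiquinol to oxygen, and neither pumps protons. In illuminated leaves the chain oxidises reducing power exported from chloroplasts and made in photorespiration, and the bypasses are known to help when that supply runs high.

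Library totals ran from 11606570 to 18837265 counts. Levels are given as CPM, counts scaled to TMM-adjusted library sizes, which are not divided by gene length and are therefore compared between libraries only, never between genes. The edited genes' own transcripts went against the labels. NdhO was low in the libraries labelled WT 1, pgr5 2 and pgr5 3, at 44.3, 20.5 and 48.4 CPM, and between 230 and 617 CPM in the other 6, which include all of those labelled ndhO. PGR5 was low in the libraries labelled WT 2, WT 3 and ndhO 1, at 46.5, 42.8 and 38.1 CPM, and between 250 and 389 CPM in the other 6, which include all of those labelled pgr5. Each library labelled WT was thus low in 1 of the edited genes. Whether libraries or columns were exchanged was not tested, and an exchange would change what every comparison of labels below compares. Groups below are therefore libraries that carry the same label, directions are between labels, and a name such as WT 1 stands for the library so labelled.

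Respiratory transcripts did not differ between the labels past the test's threshold. edgeR's quasi-likelihood test, adjusted by Benjamini-Hochberg over all 17970 genes, called 0 of the 71 genes in ndhO against WT, in pgr5 against WT and in pgr5 against ndhO, each beside a background of 0% of all genes. The lowest adjusted p among the 71 was 1.00 in each comparison. DESeq2 and limma-voom also called 0 of the 71. The median standard error of the 71 log2 fold changes was 0.24 in each comparison, with a range from 0.13 to 1.78 for ndhO against WT. Small differences between labels were therefore not detectable with these libraries grouped by these labels.

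At an unadjusted p under 0.05, 3 of the 71 genes stood out in ndhO against WT (4.23%, with 2.74% of all genes), 0 in pgr5 against WT (with 2.06%) and 2 in pgr5 against ndhO (2.82%, with 2.67%). The CPM ranges of the labels were apart, with no overlap of their 3 libraries, for 7 genes in ndhO against WT (9.86%, with 8.63% of all genes), 4 in pgr5 against WT (5.63%, with 6.32%) and 4 in pgr5 against ndhO (5.63%, with 8.25%). With TMM scaling these shares lay near the background. The median log2 fold change was 0.03 for ndhO against WT, -0.02 for pgr5 against WT and -0.07 for pgr5 against ndhO, where the medians of all genes were -0.00379, 0.00323 and 0.01. The comparisons share libraries in pairs, so their values are not independent. All of these medians turned sign when a library was left out: without WT 3 the first was -0.02, without WT 2 the second was 0.12, and without pgr5 2 the third was 0.04.

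**Figure D1:**
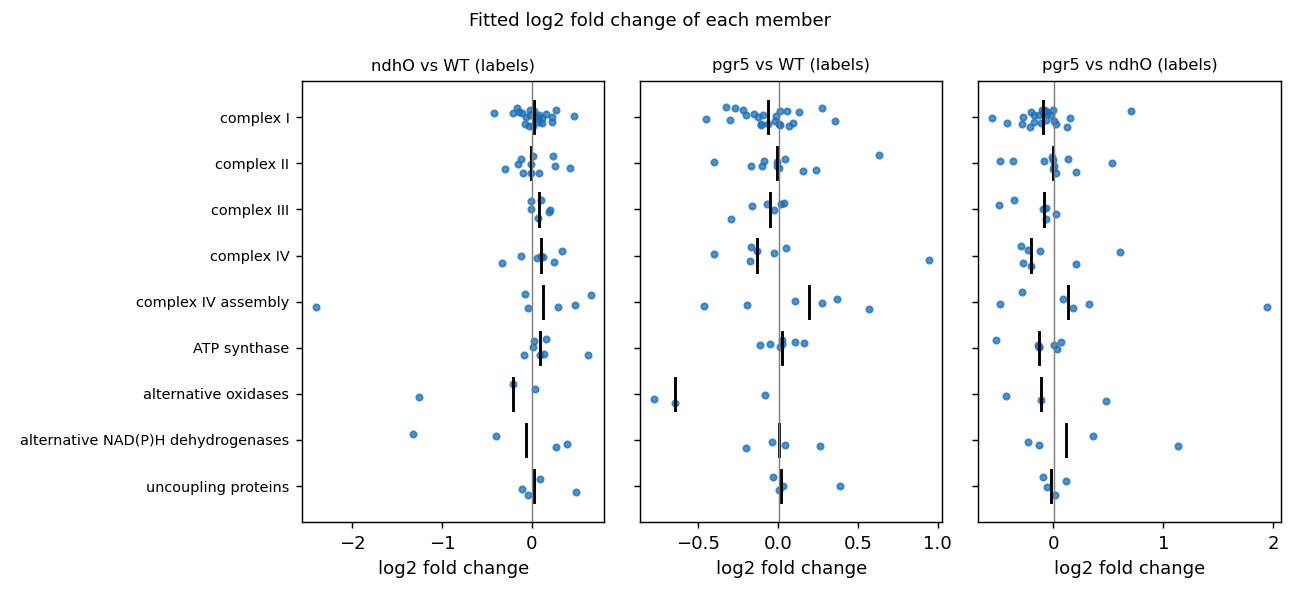
Fitted log2 fold change of each of the 71 genes (points, x axis) by role (y axis) in the 3 comparisons of labels, with the median of each role as a black bar and the median of all genes tested as a grey line. Most genes lie within 0.5 of the grey line, and the widest points belong to genes with a library at 0 counts, except in pgr5 against WT, where the widest is a complex IV subunit gene with a mean of 0.89 CPM.

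Most of the 71 genes moved together between libraries that carry the same label. Taking each gene relative to its own mean over the 9 libraries on the log2 scale (prior count 2), the median of the 71 genes was -0.15, 0.27 and -0.13 in WT 1, 2 and 3. It was -0.05, 0.08 and 0.10 in ndhO 1, 2 and 3, and 0.10, -0.33 and 0.12 in pgr5 1, 2 and 3. The highest library, WT 2, and the lowest, pgr5 2, thus came from different labels, and each of those labels also held libraries on the other side of 0. Over all genes tested the same median stayed between -0.001 and 0.03. TMM scaling keeps that median near 0, so it does not measure how far other lists of genes moved. Of the 71 genes, 62 lay above their own mean in WT 2, 14 in pgr5 2 and 15 in WT 1. WT 2 held the highest value of 29 genes and pgr5 2 the lowest value of 36. Among the 53 genes with a mean of at least 10 CPM these numbers were 27 and 31.

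Summed over the 71 genes, respiratory transcripts made up 2574, 3390 and 2615 CPM in WT 1, 2 and 3. The sums were 2734, 3043 and 3031 CPM in ndhO 1, 2 and 3 and 3013, 2265 and 3135 CPM in pgr5 1, 2 and 3. The highest sum was 1.5 times the lowest, and the labels overlapped. In a step added after the values were seen, the library medians of the respiratory genes of other roles were subtracted from each gene, so that a gene's own role had no part in them. The SD of log2 CPM over the 9 libraries became smaller for 54 of the 71 genes (76.1%), and the median SD went from 0.28 to 0.23. With the median of the 71 genes subtracted from the 17899 other genes tested, the SD became smaller for 30.2% of them, and their median SD went from 0.37 to 0.41. Genes of 10 to 200 CPM had a median SD of 0.26 among respiratory genes (n = 53) and 0.25 among all genes (n = 8900), so their spread was close to that of other genes of this level. In bulk leaf tissue, fewer cells of a type and less RNA per cell cannot be told apart.

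**Figure D2:**
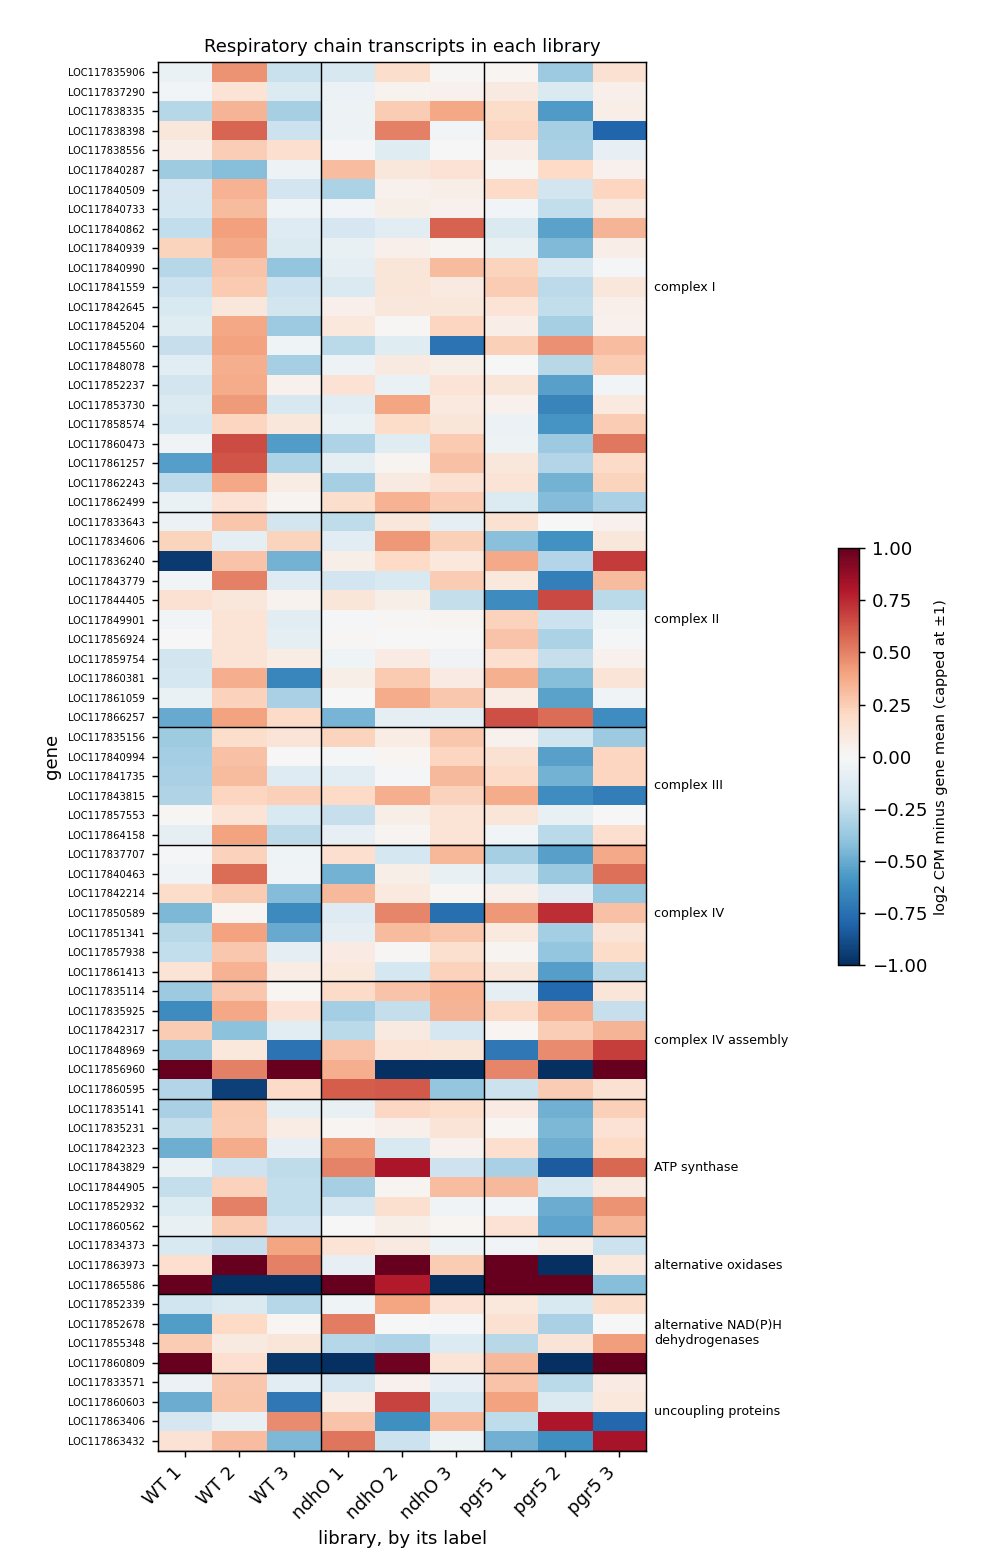
Log2 CPM minus the gene's mean over 9 libraries (colour, limited to 1 either side of 0) for each of the 71 genes (rows, grouped by role) in each library (columns, by label). The column of WT 2 is mostly red and that of pgr5 2 mostly blue through complexes I to IV and the ATP synthase, while the complex IV assembly factors and the alternative oxidases show other patterns.

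Leaving out WT 2, the library highest in these transcripts, changed the comparison of ndhO with WT most. Without it the median log2 fold change of the 71 genes was 0.22, and the remaining libraries did not overlap for 29 genes (40.8%, with 21.8% of all genes). As WT 2 was the highest library in these same genes, a rise without it was built in. The genes moved together, so the 29 are not separate results. Without any other single library labelled WT or ndhO, 9 or 10 genes did not overlap (12.7% or 14.1%, with 15.2% to 20.4% of all genes). The test still called 0 of the 71.

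Complex I, which takes electrons from NADH and pumps protons, followed this shift between libraries closely. Of its 23 genes, 22 lay above their mean in WT 2 and 2 in pgr5 2, with medians of 0.36 and -0.33. In WT 1 and WT 3, 3 and 5 of the 23 lay above their mean. Subtracting the median of the other roles lowered the SD in 21 of the 23 genes, and the median SD went from 0.26 to 0.16. Flavoprotein 1 (LOC117842645), which binds NADH and the flavin that accepts its electrons, stood at 118, 143 and 116 CPM in WT 1, 2 and 3, 136, 143 and 142 CPM in ndhO 1, 2 and 3, and 145, 111 and 136 CPM in pgr5 1, 2 and 3. The lowest value was in pgr5 2 and the labels overlapped. Iron-sulfur protein 1 (LOC117840733), the large subunit that carries electrons on from the flavin, stood at 103, 145 and 114 CPM in WT, 115, 122 and 121 CPM in ndhO and 115, 98.3 and 124 CPM in pgr5. WT 2 was highest and pgr5 2 lowest. The genes with the narrowest and widest range in complex I differed 1.21-fold and 2.62-fold between their highest and lowest libraries.

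The lowest unadjusted p of the set belonged to a complex I gene, accessory subunit alpha 2-like (LOC117862499). It stood at 22.5, 26.0 and 24 CPM in WT 1, 2 and 3, at 26.6, 30.0 and 28.1 CPM in ndhO 1, 2 and 3, and at 21.4, 17.4 and 18.8 CPM in pgr5 1, 2 and 3. All libraries labelled ndhO lay above and all labelled pgr5 below those labelled WT. The log2 difference of pgr5 against ndhO was -0.56 with a standard error of 0.15 (unadjusted p = 0.00378, edgeR adjusted p = 1.00). It ran from -0.65 to -0.49 over the alternatives, where the lowest adjusted p was 0.459. Against WT the log2 differences were 0.23 for ndhO and -0.33 for pgr5, each with a standard error of 0.15 (unadjusted p = 0.158 and 0.0513, edgeR adjusted p = 1.00 in each).

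A second gene with nearly the same description, alpha subunit 2 (LOC117838398), stood at 13.4, 18.7 and 10.7 CPM in WT, 12, 17.7 and 12.2 CPM in ndhO and 14.4, 9.86 and 7.13 CPM in pgr5, with overlapping labels. The log2 ratio of the first gene to the second ran from 0.47 to 1.40 over the 9 libraries. Reads shared between such copies could have been split between them by the authors' counting, so the values of either copy alone are uncertain.

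Assembly factors of complex I are proteins that build the complex and are not part of the finished enzyme. Assembly factor 3-like (LOC117840287) stood at 8.61, 8.2 and 10.6 CPM in WT 1, 2 and 3, 13.7, 12 and 12.2 CPM in ndhO 1, 2 and 3, and 11.1, 12.7 and 11.3 CPM in pgr5 1, 2 and 3. All libraries labelled WT lay below the other 6. The log2 difference from WT was 0.47 for ndhO and 0.36 for pgr5, each with a standard error of 0.19 (unadjusted p = 0.0330 and 0.0894, edgeR adjusted p = 1.00 in each). WT 2, which was highest for most subunits, was the lowest library here. Assembly factor 2 (LOC117845560), named after its values were seen, stood at 3.84, 4.26 and 2.73 CPM in ndhO and 5.5, 6.42 and 5.78 CPM in pgr5, with WT between 3.94 and 6.19 CPM. Its log2 difference of pgr5 against ndhO was 0.70 with a standard error of 0.30 (unadjusted p = 0.0404, edgeR adjusted p = 1.00).

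Complex II, succinate dehydrogenase, is also an enzyme of the tricarboxylic acid cycle. Of its 11 genes, which include assembly factors, 10 lay above their mean in WT 2 and 3 in pgr5 2, and the labels overlapped for every gene in every comparison. The flavoprotein subunit (LOC117859754), which oxidises succinate, stood at 146, 182 and 174 CPM in WT, 160.3, 175 and 161 CPM in ndhO and 186, 141 and 171 CPM in pgr5. Its highest and lowest libraries, pgr5 1 and pgr5 2, carried the same label. A gene described as similar to that subunit (LOC117836240) stood at 2.47, 6.03 and 3.52 CPM in WT, 5.14, 5.66 and 5.30 CPM in ndhO and 6.46, 3.99 and 8.06 CPM in pgr5, the widest range in complex II at 3.27-fold. Iron-sulfur subunit 1 (LOC117860381), which passes the electrons towards ubiquinone, stood at 37.0, 53.8 and 26.6 CPM in WT, 43.5, 50.3 and 44.3 CPM in ndhO and 53.6, 31.1 and 45.7 CPM in pgr5. The WT libraries alone spanned its whole range. Subunit 6 (LOC117861059), an additional subunit known from plants, had a log2 difference of pgr5 against ndhO of -0.36 with a standard error of 0.20 (unadjusted p = 0.106, edgeR adjusted p = 1.00), or -0.20 without pgr5 2, and assembly factor 2 (LOC117833643) ran from 37.4 to 54.3 CPM.

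Complex III, the cytochrome b-c1 complex, moves electrons from ubiquinol to cytochrome c. All 6 genes lay above their mean in WT 2 and in ndhO 3, and 0 of 6 did in pgr5 2. The Rieske iron-sulfur protein, which makes the first transfer out of ubiquinol, was encoded by a pair of genes. The copy LOC117857553 stood at 51.2, 55.8 and 45.7 CPM in WT, 43.4, 52.9 and 55.8 CPM in ndhO and 55.4, 48.3 and 50.7 CPM in pgr5, a range of 1.29-fold. The copy LOC117864158 ranged 1.6-fold, from 38.7 CPM in pgr5 2 to 61.8 CPM in WT 2.

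Subunit 7 of complex III, a small accessory subunit, was described for 3 genes. Subunit 7-2 (LOC117843815) stood at 17.6, 25.1 and 25.6 CPM in WT 1, 2 and 3, 24.9, 28.0 and 25.4 CPM in ndhO 1, 2 and 3, and 28.1, 14.1 and 13.4 CPM in pgr5 1, 2 and 3. WT 1, pgr5 2 and pgr5 3 were low and the other 6 libraries lay within 24.9 to 28.1 CPM, so the split ran across labels. Those 3 are also the libraries low in NdhO, which was noticed after the values were seen and not tested. The copy LOC117835156 stood at 16.9, 24.5 and 23.8 CPM in WT, 25.3, 22.9 and 26.2 CPM in ndhO and 22.4, 18.9 and 16.9 CPM in pgr5. Its libraries labelled pgr5 all lay below those labelled ndhO, with a log2 difference of -0.35 and a standard error of 0.19 (unadjusted p = 0.0879, edgeR adjusted p = 1.00). However, WT 1, pgr5 2 and pgr5 3 were again the low libraries, and the other 6, pgr5 1 among them, lay within 22.4 to 26.2 CPM. The split of this copy thus also ran across labels, which was noticed after the values were seen and not tested. The third copy, LOC117840994, named after its values were seen, was at 47.8 CPM in pgr5 3, where the other copies were at their lowest. As near-copies, these genes may share reads.

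Complex IV, cytochrome c oxidase, reduces oxygen to water. Its 7 nuclear genes described subunits 5b, 6a and 6b, and all 7 lay above their mean in WT 2 and 1 of 7 in pgr5 2. Subunit 6a (LOC117837707) stood at 52.4, 62.2 and 51.2 CPM in WT, 59.5, 46.8 and 66.4 CPM in ndhO and 42.0, 36.3 and 68.7 CPM in pgr5. The extremes of the 9 libraries were both labelled pgr5. Subunit 6b-1-like (LOC117840463) stood at 32.3, 48.7 and 32.2 CPM in WT, 23.8, 34.6 and 31.4 CPM in ndhO and 29.2, 25.6 and 48.6 CPM in pgr5, with high values in WT 2 and pgr5 3. Subunit 6b-3 (LOC117861413) had the lowest unadjusted p of complex IV, with a log2 difference of pgr5 against WT of -0.40 and a standard error of 0.20 (unadjusted p = 0.0650, edgeR adjusted p = 1.00), or -0.26 without pgr5 2. It stood at 30.4, 35.3 and 29.0 CPM in WT and at 29.8, 18.9 and 22.7 CPM in pgr5, and the labels overlapped through pgr5 1.

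The 6 assembly proteins of complex IV had a median of 0.25 in pgr5 2, where that of the complex IV subunits was -0.37. In WT 2 and WT 1 their medians, 0.19 and -0.33, had the same sign as those of the subunits, 0.27 and -0.03. Subtracting the median of the other roles lowered the SD in 2 of the 6. The difference between assembly proteins and subunits was not tested. Their levels were low, with means from 0.55 to 10.5 CPM. The genes named here were chosen after their values were seen. COX11 (LOC117835114), which delivers copper to the oxidase, stood at 7.87, 12.3 and 10.3 CPM in WT, 11.7, 12.4 and 13 CPM in ndhO and 9.55, 5.87 and 11.1 CPM in pgr5, and all its libraries labelled pgr5 lay below those labelled ndhO. The COX19-like gene LOC117848969, whose relatives act as copper chaperones, stood at 4.57, 6.42 and 3.52 CPM in WT, 7.27, 6.54 and 6.48 CPM in ndhO and 3.57, 8.30 and 9.70 CPM in pgr5. COX15 (LOC117860595), which makes the heme A of the oxidase, ran from 1.47 CPM in WT 2 to 4.55 CPM in ndhO 2. A second gene, described as COX15-like (LOC117856960), was at 0 counts in ndhO 2, ndhO 3 and pgr5 2 and reached at most 1.34 CPM. Its log2 difference of ndhO against WT was -2.41 with a standard error of 1.76. That of LOC117860595 was 0.65 with a standard error of 0.43.

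**Figure D3:**
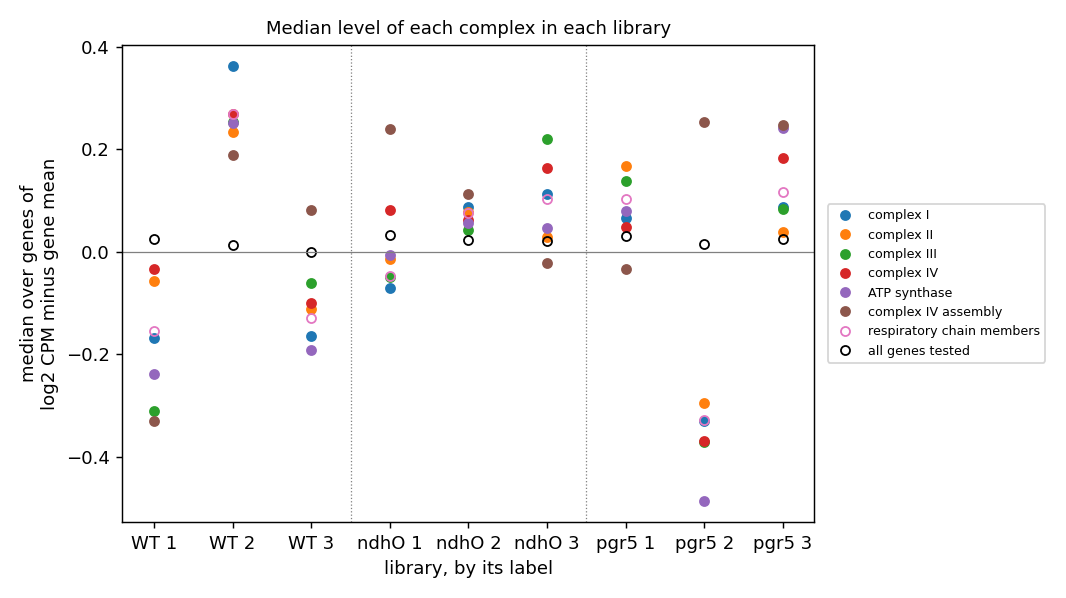
Median over the genes of each complex of log2 CPM minus the gene mean (y axis) in each library (x axis, by label), with the median of all 71 genes and of all genes tested as open circles. Complexes I to IV and the ATP synthase sit together at 0.23 to 0.36 in WT 2 and at -0.49 to -0.30 in pgr5 2, where the complex IV assembly genes are at 0.25.

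The ATP synthase turns the proton gradient into ATP. Of its 7 genes, 0 lay above their mean in WT 1 and in pgr5 2, 6 in WT 2 and 7 in pgr5 3, and the median in pgr5 2, -0.49, was the lowest of any complex in any library. Subunit gamma (LOC117835141), the rotating central stalk, stood at 153, 231 and 181 CPM in WT 1, 2 and 3, 182, 222 and 217 CPM in ndhO 1, 2 and 3, and 203, 138 and 227 CPM in pgr5 1, 2 and 3. Subunit O (LOC117835231), part of the peripheral stalk, stood at 133, 188 and 166 CPM in WT, 159, 163 and 172 CPM in ndhO and 160.1, 115 and 174 CPM in pgr5. In both genes WT 2 was above the other libraries labelled WT and pgr5 2 was lowest of the 9.

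The plant 24 kDa subunit (LOC117852932) had a wider range, 2.00-fold, from 77.8 CPM in pgr5 2 to 155 CPM in WT 2. Subunit delta' (LOC117844905), of the central stalk, ran from 48.4 CPM in ndhO 1 to 76.3 CPM in pgr5 1. F1 assembly factor 2 (LOC117843829) stood at 4.88, 4.41 and 4.25 CPM in WT, 7.27, 9.11 and 4.42 CPM in ndhO and 4.05, 2.82 and 7.65 CPM in pgr5. Its log2 difference of ndhO against WT was 0.62 with a standard error of 0.40 (unadjusted p = 0.152, edgeR adjusted p = 1.00), and it was 0.38 without ndhO 2.

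Alternative oxidases are single proteins of the inner membrane that pass electrons from ubiquinol straight to oxygen, and in Arabidopsis the 1a gene is a standard marker of mitochondrial stress. Oxidase 1c (LOC117834373) was steady, at 16.3, 15.4 and 23.8 CPM in WT 1, 2 and 3, 19.9, 19.3 and 17.5 CPM in ndhO 1, 2 and 3, and 17.8, 18.9 and 15.6 CPM in pgr5 1, 2 and 3. Its range was 1.55-fold, WT 3 was highest, and it did not share the low value of pgr5 2. The log2 difference from WT was 0.03 for ndhO and -0.08 for pgr5, each with a standard error of 0.20 (edgeR adjusted p = 1.00 in each).

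Oxidase 1a (LOC117863973) stood at 2.62, 5.64 and 3.35 CPM in WT, 2.2, 4.96 and 2.80 CPM in ndhO and 4.80, 0 and 2.51 CPM in pgr5. The library labelled pgr5 2 had 0 counts, where the other 8 had 32 to 90. Allowing for 3 counts in that library, its level was under 0.235 CPM and at least 24-fold lower than in WT 2. The fitted log2 difference of pgr5 against WT was -0.65 with a standard error of 0.98 (unadjusted p = 0.527, edgeR adjusted p = 1.00), and over the alternatives it ran from -1.67 with limma-voom to -0.08 without pgr5 2. In that library 4.18% of all genes in the table were at 0.

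Oxidase 1b (LOC117865586) was at 5.30 CPM (101 counts) in WT 1 and at 0 in WT 2, WT 3 and ndhO 3. It stood at 1.24 and 0.99 CPM in ndhO 1 and 2 and at 1.6, 1.17 and 0.35 CPM in pgr5 1, 2 and 3. WT 1 alone set the WT mean: the fitted log2 difference of pgr5 against WT was -0.78 with a standard error of 1.75 (unadjusted p = 0.666, edgeR adjusted p = 1.00), and without WT 1 the sign turned, as it did for ndhO. Oxidases 1a and 1b lie close together in the RefSeq gene order, with 1 gene between them, and their zeros fell in different libraries.

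**Figure D4:**
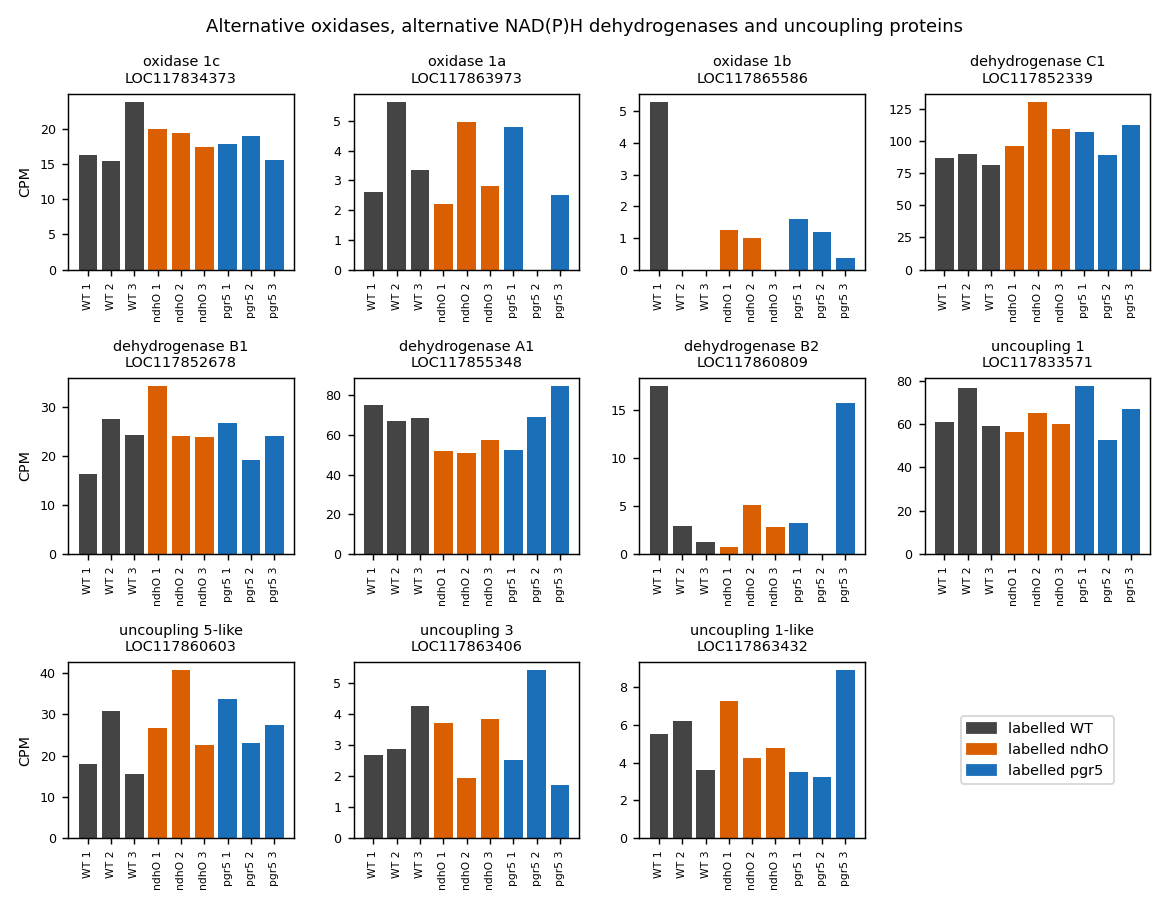
CPM (bars, y axis, each panel with its own scale from 0) of the 3 alternative oxidases, 4 alternative NAD(P)H dehydrogenases and 4 uncoupling proteins in each library (x axis), coloured by label, 1 bar per library. Uncoupling protein 1, oxidase 1c and dehydrogenases C1 and A1 range 1.47-fold to 1.66-fold between their lowest and highest libraries. Oxidase 1b is highest in WT 1 and at 0 in 3 libraries, and dehydrogenase B2 is high in WT 1 and pgr5 3 and at 0 in pgr5 2.

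Alternative NAD(P)H dehydrogenases gave the set's other values at an unadjusted p under 0.05, in opposite directions. Dehydrogenase A1 (LOC117855348), of the internal type that faces the matrix, stood at 75.2, 67.0 and 68.6 CPM in WT 1, 2 and 3, 51.8, 51.0 and 57.4 CPM in ndhO 1, 2 and 3, and 52.1, 68.9 and 84.6 CPM in pgr5 1, 2 and 3. All libraries labelled ndhO lay below those labelled WT, and those labelled pgr5 spanned both. The log2 difference of ndhO against WT was -0.40 with a standard error of 0.17 (unadjusted p = 0.0446, edgeR adjusted p = 1.00) and ran from -0.45 to -0.34 over the alternatives.

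Dehydrogenase C1 (LOC117852339), which is sent to chloroplasts as well as mitochondria and in Arabidopsis acts on plastoquinone, stood at 86.7, 89.8 and 81.4 CPM in WT 1, 2 and 3, 96.5, 131 and 109.9 CPM in ndhO 1, 2 and 3, and 107, 89.6 and 112 CPM in pgr5 1, 2 and 3. Here all libraries labelled ndhO lay above those labelled WT. The log2 difference of ndhO against WT was 0.39 with a standard error of 0.15 (unadjusted p = 0.0295, edgeR adjusted p = 1.00) and ran from 0.27 to 0.48 over the alternatives. The log2 difference of pgr5 against WT was 0.26 with the same standard error (unadjusted p = 0.118, edgeR adjusted p = 1.00), and the labels overlapped.

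The external dehydrogenases, which face the space between the membranes and take NAD(P)H from the cytosol, behaved differently from each other. Dehydrogenase B1 (LOC117852678) stood at 16.3, 27.7 and 24.4 CPM in WT, 34.4, 24.1 and 23.9 CPM in ndhO and 26.8, 19.2 and 24.2 CPM in pgr5. Dehydrogenase B2 (LOC117860809) stood at 17.5, 2.86 and 1.23 CPM in WT 1, 2 and 3, 0.75, 5.08 and 2.80 CPM in ndhO 1, 2 and 3, and 3.20, 0 and 15.7 CPM in pgr5 1, 2 and 3. WT 1 and pgr5 3 were high, with 334 and 269 counts, and the other 7 libraries were at 5.08 CPM or less. With 0 counts in pgr5 2, its level there was at least 74.7-fold lower than in WT 1. The fitted log2 difference of ndhO against WT was -1.33 with a standard error of 1.51 (unadjusted p = 0.404, edgeR adjusted p = 1.00), and it ran from -2.02 without ndhO 2 to 0.50 without WT 1.

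Uncoupling proteins are carriers of the inner membrane, and UCP1 of Arabidopsis is needed for full photorespiration. UCP1 (LOC117833571) stood at 60.9, 76.8 and 59.1 CPM in WT, 56.5, 65.3 and 60.1 CPM in ndhO and 77.6, 52.7 and 67.1 CPM in pgr5, with pgr5 2 again lowest. UCP5-like (LOC117860603), whose Arabidopsis relative carries dicarboxylates, stood at 18.1, 30.8 and 15.5 CPM in WT, 26.7, 40.7 and 22.5 CPM in ndhO and 33.7, 23.1 and 27.5 CPM in pgr5. Its log2 difference of ndhO against WT was 0.49 with a standard error of 0.30 (unadjusted p = 0.134, edgeR adjusted p = 1.00), and the labels overlapped. That value ran from 0.20 without ndhO 2 to 0.85 without WT 2. UCP3 (LOC117863406) was highest in pgr5 2, at 5.40 CPM, and lowest in pgr5 3, at 1.69 CPM. UCP1-like (LOC117863432) was the reverse, at 3.21 CPM in pgr5 2 and 8.88 CPM in pgr5 3, its lowest and highest libraries.

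Genes that work beside the chain were read from the same fit, and 0 were called in either direction in any comparison. Mitochondrial enzymes of the tricarboxylic acid cycle and pyruvate entry make NADH and succinate for the chain. The list chosen for them by words held 28 genes. Some of these were described as cytosolic or peroxisomal forms, as ATP-citrate synthases or as NADP isocitrate dehydrogenases, to which that role does not apply. The median of the 28 followed the respiratory genes over part of the libraries, at 0.13 in WT 2, -0.17 in pgr5 2 and -0.15 in WT 1. Of the 28, 24 lay above their mean in WT 2 and 6 in pgr5 2. Inner membrane carriers (26 genes, of which 3 are described as plastid or endoplasmic reticulum forms) had medians of 0.17 in WT 2 and -0.22 in pgr5 2. Genes of import and membrane upkeep (37) were highest in pgr5 3, with a median of 0.36, and lowest in WT 3, with -0.21. Their medians were 0.25 in WT 2 and -0.16 in pgr5 2, where 31 and 13 of the 37 lay above their mean.

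Mitochondrial chaperones (12 genes) ranged from -0.34 in WT 3 to 0.51 in pgr5 3, with 0.09 in WT 2 and -0.09 in pgr5 2. Cytochrome c, cytochrome c1 and their assembly (8 genes) ranged from -0.18 in WT 3 to 0.24 in pgr5 3. Among the 4 genes of manganese superoxide dismutase, which removes superoxide in the matrix, and of retrograde signalling from mitochondria to the nucleus, stomatin-like protein 2 (LOC117862167), named after its values were seen, stood at 13.1, 15.7 and 13.9 CPM in WT, 15.7, 22.2 and 21.0 CPM in ndhO and 18.5, 16.9 and 22.5 CPM in pgr5. Its unadjusted p was 0.0366 for ndhO against WT (edgeR adjusted p = 1.00), with a log2 difference of 0.47. At an unadjusted p under 0.05, the tricarboxylic acid cycle list held 2 genes in ndhO against WT (7.14%). It held 0 in pgr5 against WT and 1 in pgr5 against ndhO (3.57%). The carriers held 0, 1 and 1 (3.85% each), and import and upkeep 0, 1 (2.70%) and 0. The chaperones held 0, 1 (8.33%) and 0, the cytochrome c list 0 in each, and the superoxide dismutase and retrograde list 1, 1 (25% each) and 0. Of all genes, 2.74%, 2.06% and 2.67% were under 0.05, and each share of a list above 0 rested on 1 or 2 genes. The NAC17-like gene (LOC117859843), whose Arabidopsis relative activates oxidase 1a, ran from 44.9 CPM in WT 2 to 60.7 CPM in pgr5 1.

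Lists of genes named here for leaf cell types also differed between libraries. They were chosen by family words in the descriptions, and whether each gene is particular to its cell type was not tested. The 14 lignifying vascular genes, of which 7 were at 0 in at least 1 library, had medians of 1.09 in WT 2, 1.63 in pgr5 3 and -0.96 in pgr5 2, and their summed level ran from 88.3 to 236 CPM in WT, 82.7 to 133 CPM in ndhO and 58.2 to 288 CPM in pgr5. The 14 mesophyll genes had a median of 0.16 in WT 2 and their lowest, -0.32, in pgr5 2, with summed levels from 68970 to 82040 CPM in WT, 65140 to 92240 CPM in ndhO and 62340 to 82990 CPM in pgr5. The 76 epidermis and cuticle genes were highest in ndhO 3, with a median of 0.31, and lowest in WT 3, with -0.23, beside 0.19 in WT 2 and -0.16 in pgr5 2, and 21 of them were at 0 in at least 1 library. The 11 bundle sheath genes were lowest in ndhO 1, at -0.73, and in WT 3, at -0.62. The 34 genes of dividing cells stayed between -0.09 and 0.10. The part of these differences in the levels of respiratory transcripts was not tested.

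At an adjusted p of 0.05, the authors' deposited table held 451 of 17987 genes (2.51%) past the threshold in pgr5 against WT, and 0 in ndhO against WT (0%). None of the 71 respiratory genes was among them in the authors' deposited table. Their lowest adjusted p there was 0.0634 for pgr5 and 0.725 for ndhO. The first was that of COX15 (LOC117860595), with a log2 fold change of 1.42. For this gene the fit to the counts gave 0.37 for pgr5 against WT with a standard error of 0.43, and the labels overlapped. Oxidase 1b came next in the authors' deposited table, with a log2 fold change of 6.55 for pgr5 against WT and an adjusted p of 0.0753, where the fit to the counts gave -0.78. The authors' corrected log2 CPM for oxidase 1b were -0.06, -7.17 and -7.09 in WT 1, 2 and 3 and 3.18, 2.75 and 1.08 in pgr5 1, 2 and 3, although the counts were 101, 0 and 0 against 30, 15 and 6. In these corrected values ndhO 3 equalled the mean of ndhO 1 and 2 for all 17987 genes in the table, the 71 among them (tolerance 1e-06).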

How the data were processed

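Per the labels' protocols, stranded libraries of polyadenylated leaf RNA were sequenced from both ends. Per the submitters' processing notes, edgeR 4.4.1, limma 3.62.2, StringTie 2.2.3, Trim Galore 0.6.7 and FastQC 0.11.9 were used. Because the build and the aligner were not given in the sources used here, coordinates are left out. The authors deposited whole-number counts per gene and library, per the file headers, and these were used unchanged for every test. The authors' deposited corrected log2 CPM and log2 fold changes, their t and B statistics (treated as a score) and their p-values were used only where named. The file headers do not say what was corrected. Column names for ndhO and pgr5 have an added middle number of unknown meaning. They were matched to samples by label and last number, which left 0 columns unmapped.

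Tests used edgeR 4.0.16 in R 4.3.3 (TMM scaling, default filter, robust quasi-likelihood) in 1 fit over 9 libraries, with the label as sole covariate, and Benjamini-Hochberg adjustment over 17970 genes at a threshold of 0.05. No exact permutation test was run, since 3 against 3 libraries cannot reach a p under 0.1. The procedure was tested on simulated data. All 71 genes matched RefSeq symbols of GCF_005286985.2, used for gene order only.

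The genes and lists were chosen with earlier results of these data known, so they are not independent evidence. The text names, by rule, every oxidase, alternative dehydrogenase and uncoupling protein, and in each complex (assembly proteins of complex IV apart) the 2 genes of highest mean CPM, the most variable gene of at least 10 CPM, and the gene of lowest p per comparison, which gave 33 genes. Cell type and pathway lists were defined by words in the descriptions. A planned search of promoters for known sequence words was not run, because no sequences were used here. Alternatives were RLE, upper quartile and library size scaling, other filters, DESeq2 1.42.0, limma-voom from limma 3.58.1, fits of 2 labels only, fits without each library in turn and a replicate block.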

Additional observations from a re-analysis of the deposited data

How the results depend on the processing

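Under the 18 alternatives, 9 of them with a library left out, 0 of the 71 genes were called in any comparison, and 0 of 1485 values of the 33 genes named by rule changed side of the threshold, while 123 uncalled ones had the other sign. Over all genes, DESeq2 called 16 in ndhO against WT, 6 in pgr5 against WT and 12 in pgr5 against ndhO, where edgeR and limma-voom called 0, and the cause was not tested. With a library left out, 0 genes were called in every comparison. The median log2 fold change of the 71 genes then ran from -0.02 (without WT 3) to 0.22 (without WT 2) for ndhO against WT, from -0.11 (without WT 1) to 0.12 (without WT 2) for pgr5 against WT, and from -0.18 (without pgr5 3) to 0.04 (without pgr5 2) for pgr5 against ndhO. The spread of library medians within a label was 0.206 (pooled SD). Over all the alternatives, members at an unadjusted p under 0.05 numbered 0 to 5, 0 to 6 and 1 to 6 in these comparisons. The highest were 5 without WT 2 in the first, and 6 without pgr5 1 in each of the others. In those fits 869, 612 and 839 of all genes tested were under 0.05, in place of 493, 371 and 480. In a step added after seeing the data, other scalings put the library median of WT 2 between 0.19 and 0.27. They put that of pgr5 2 between -0.33 and -0.28, while those of ndhO 1 and ndhO 2 changed sign under library size scaling. That scaling also gave 11 genes without overlap in ndhO against WT (15.5%, with 8.52% of all genes). TMM scaling gave 7 (9.86%, with 8.63%).

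With the replicate number as a block, 0 genes were called in each comparison, the median log2 fold changes were 0.03, -0.03 and -0.06, and 0 of the 71 genes were at an unadjusted p under 0.05 in ndhO against WT, in place of 3. Same-numbered libraries deviated together in 0 of 9 pairs (r from -0.38 to 0.06, with a minimum of 0.1), and 0 libraries correlated best with their own number, so the numbers were not taken as pairs.

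Depth limited few genes: 66 of the 71 had at least 19 counts in every library, and 4 had a library at 0. With 3 libraries per label, outlying single values were not searched for.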
